A study of Mus musculus with 4 samples.

Results

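Ectodysplasin signaling was followed through 6 genes, Eda, Edar, Eda2r, Tnfrsf19, Edaradd and Traf6, in PSC-derived SG placodes and in E12.5 mouse SMGs. They were chosen by symbol for their place in the pathway, and all 6 were found among the 24771 features of the expression table. The ligand Eda, its receptor Edar and the adaptor Edaradd were lower in the placodes, by 4.22-fold, 8.37-fold and 2.01-fold in mean FPKM. The alternative receptor Eda2r and the downstream ubiquitin ligase Traf6 were higher, by 3.36-fold and 1.60-fold. Tnfrsf19 was 1.46-fold lower and was found at several FPKM in both groups.

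Ectodysplasin is a ligand of the tumor necrosis factor (TNF) family that is anchored in the membrane and released by furin-type proteases. Its A1 form binds Edar, which recruits the adaptor Edaradd through their death domains, and Edaradd passes the signal through Traf6 and the TAK1 kinase complex to the IκB kinases and NF-κB. The A2 form binds Eda2r, a separate receptor that uses Traf6 without Edaradd. Tnfrsf19, also called Troy, is an orphan receptor related to both. In mice, loss of Eda, Edar or Edaradd gives the Tabby, downless and crinkled phenotypes, with defects of hair, teeth, sweat glands and salivary glands. In the embryonic submandibular gland, Eda is known as a gene of the mesenchyme and Edar as a gene of the epithelium.

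The placodes were aggregates of cells of a mouse embryonic stem cell line, taken on day 10 of culture, which the sample labels also call induced embryonic salivary glands. Wells of 3000 cells in 2% Matrigel received BMP4 (2 ng/ml) on day 3, bFGF (25 ng/ml) together with RA (1 μM) on day 4, and 200 ng/ml of FGF10 starting on day 6. The comparison group was SMGs of E12.5 mouse embryos, and each group held 2 samples. The labels give no strain or genotype for them, call all samples untreated, and repeat the text of the culture and RNA protocols of the placodes for the SMG samples. How these glands were dissected, whether embryos were pooled and whether the placode samples came from separate cultures is not given, so the p-values measure only the spread between these samples.

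Expression was given as FPKM, in which the fragments of a gene are scaled to its length and to the total of the sample, which allows levels of different genes to be set side by side. The FPKM values summed to 361963 to 384773 per sample, and 12636 to 12807 features reached 1 FPKM. No read counts were given. In genes with a single annotated transcript, the product of FPKM and length in kilobases piled up at 0.0523 to 0.0629. If this is the value of 1 fragment, the samples held about 15.9 M to 19.1 M fragments (M, mega). Fold changes (log2FC) are differences between group means of log2(FPKM + 1), placodes over SMGs, and understate the change of low genes. They were tested with limma over the 13193 features with a mean of at least 1 FPKM, and adjusted p is by Benjamini-Hochberg over those features. At an adjusted p below 0.05, 76.2% of the tested features differed between the groups, 35.7% being higher and 40.4% lower in the placodes, so a difference in itself was the usual finding here. With 2 samples in each group, exact permutation of the labels gives no p below 0.333 and was not used.

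The tissue labels were compared with marker genes. Of 14 epithelial markers, 11 fell and 1 rose in the placodes, and their summed level was 65.7 and 72.2 FPKM there against 691 and 655 FPKM in the SMGs. The defining markers Epcam (1.75 and 2.69 FPKM against 87.2 and 78.8) and Cdh1 (1.11 and 1.18 against 28.2 and 24.7) were low, Trp63 was at 0.0286 and 0.0262, and neither placode sample had Krt5, Krt14 or Krt15 above 0. Krt8 (34.4 and 35.6 FPKM against 36.1 and 28.3) and Krt18 (20.8 and 24.5 against 20 and 15.4), keratins of simple epithelium, did not pass the test and made up 84.0% and 83.2% of the placode sums, and Krt7 rose (2.19 and 3.02 against 0.914 and 0.674). All 10 mesenchymal markers fell, with sums of 219 and 215 FPKM against 2173 and 2121. The 6 endothelial markers fell as well, with sums of 10.1 and 9.36 against 117 and 121, and so did 4 of 6 markers of neural crest and glia, with sums of 13.2 and 10.7 against 53.6 and 49.5. Of 7 blood markers, 6 fell and 4 stood at 0 in each of the placode samples, and the sums were 1.68 and 2.07 against 2928 and 2942. All 10 neural markers rose, with sums of 1168 and 1212 FPKM in the placodes against 128 and 116, and Pax6 stood at 40.7 and 42.2 in the placodes and at 0.10 and 0 in the SMGs. In bulk RNA, fewer cells of a type and less RNA per cell cannot be told apart, which holds for every level given here.

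The forms of the ligand that use different receptors are set by a choice of splice donor at the end of an Eda exon. In the GENCODE M21 annotation of GRCm38, 3 of the 9 coding transcripts of Eda join chrX:100395120-100395149 to chrX:100396905-100396928 at this place. Another 2 end the exon at position 100395143, join it to the same next exon and so lack 6 bases, which are 2 codons. Both junctions are shown on the plus strand, 5′ to 3′, because they tell a ligand of Edar from a ligand of Eda2r, and the capitals mark the 6 bases that are present in A1 alone.
Eda-A1: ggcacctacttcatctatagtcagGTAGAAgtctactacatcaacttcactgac
Eda-A2: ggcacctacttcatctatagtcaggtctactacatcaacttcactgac
The other 4 coding transcripts have neither junction. The FPKM of Eda is a value for the gene, so the levels below do not separate A1 from A2.

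Eda (chrX:99975606-100400762, plus strand, GRCm38) was at 1.17 and 1.52 FPKM in placode samples 1 and 2, and at 6.12 and 5.21 FPKM in SMG samples 1 and 2. Both placode samples lay far below both SMG samples. The means were 1.34 ± 0.245 and 5.67 ± 0.641 FPKM (SD, n = 2 each), and the log2FC was -1.51 (SE 0.13, limma adjusted p = 7.67e-05). Eda was thus among the 29.4% of tested features that differed at least 2-fold on this scale. Its level exceeded that of 51.0% of all features in the placodes and of 63.9% in the SMGs. All 10 mesenchymal markers moved in the same direction. In mean FPKM, 7 of them fell by a larger factor than Eda, up to the growth factor gene Fgf10, and Col1a1 (3.83-fold), Pdgfrb (3.25-fold) and Twist1 (2.93-fold) fell by a smaller one. The ratio of Eda to the marker was higher in the placodes than in the SMGs, without overlap, for 7 markers, overlapped for Col1a1 and Pdgfrb, and was lower for Twist1, at 0.0553 and 0.0664 against 0.0994 and 0.0772. The part of these markers in the difference of Eda was not tested.

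**Figure D1:**
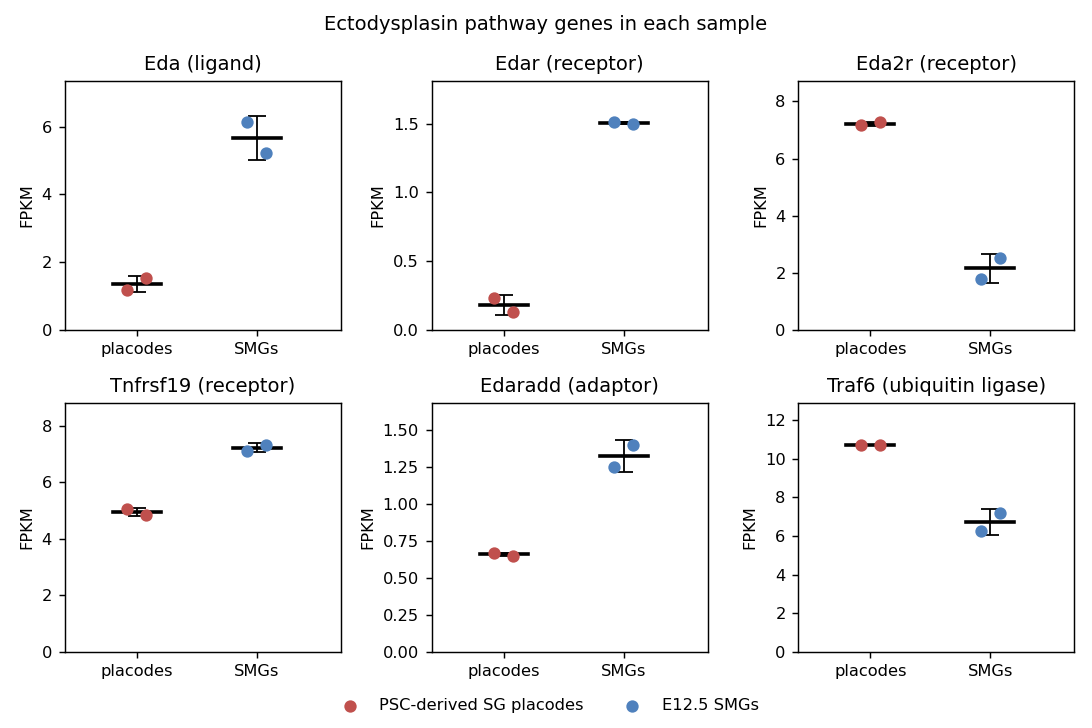
FPKM of the 6 ectodysplasin pathway genes in each of the 4 samples, with points for samples, a horizontal line for the group mean and bars for the SD (n = 2). In no gene do the groups overlap, which also holds for 88.4% of the tested features. Eda2r and Traf6 are higher in the placodes and the other genes are higher in the SMGs.

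Furin (9.46 and 7.86 FPKM against 30.4 and 30.6, log2FC -1.71) and the related proprotein convertases were all lower in the placodes. Furin cuts the ligand from the membrane. Pcsk5 showed the largest difference of the 4 (2.12 and 2.18 FPKM against 16.8 and 18.6, log2FC -2.56), ahead of Pcsk6 (1.28 and 1.25 against 6.22 and 6.44, log2FC -1.69). Pcsk7 differed least, at 6.51 and 6.10 FPKM against 9.52 and 10.3 (log2FC -0.58). All 4 fell at an adjusted p below 0.05, where 76.2% of all tested features differed and 40.4% were lower. The median log2FC of the 4 convertases was -1.70, beside -0.05 over all tested features, and the highest limma adjusted p among them was 9.06e-04. These enzymes cut many other proteins, so their levels are not specific to Eda.

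The receptors did not move together. Edar (chr10:58600789-58675654, minus strand), the receptor of the A1 form, was at 0.231 and 0.128 FPKM in the placodes and at 1.51 and 1.50 in the SMGs. Both SMG samples were nearly equal, and both placode samples were well below them. The means were 0.179 ± 0.0726 and 1.50 ± 0.00817 FPKM (SD, n = 2 each), and the log2FC was -1.09. With a mean of 0.841 FPKM over all samples, Edar was under the minimum for testing. Without that minimum, when 20464 features were tested and 58.1% of them differed, its limma adjusted p was 8.95e-04 (SE 0.09). By the estimated value of a fragment, the placode levels stand for about 13.6 and 7.73 fragments over a transcript of 3637 bases, against 87.2 and 104 in the SMGs, so the placode level carries a large counting error. Of the 14 epithelial markers, 10 were lower in the placodes by a larger factor than Edar in mean FPKM, Epcam by 37.3-fold, and Cdh3 was lower by a smaller factor, 4.47-fold. Krt8, Krt18 and Krt7 were not lower. The ratio of Edar to the marker was higher in the placodes than in the SMGs, without overlap, for 7 markers, among them Epcam (0.131 and 0.0475 against 0.0173 and 0.0190). It was lower for Cdh3, Krt8, Krt18 and Krt7, and the other 3 markers, Krt5, Krt14 and Krt15, were at 0 in the placodes. The part of the epithelial markers in the difference of Edar was not tested.

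Eda2r (chrX:97333840-97377216, minus strand), the receptor of the A2 form, went the other way. It was at 7.17 and 7.26 FPKM in the placodes and at 1.79 and 2.50 in the SMGs. The placode samples were close to each other, and the lower of them was well above the higher SMG sample. The means were 7.22 ± 0.0652 and 2.15 ± 0.504 FPKM (SD, n = 2 each), with a log2FC of 1.39 (SE 0.13, limma adjusted p = 1.24e-04). All 10 neural markers moved in this direction, from a log2FC of 1.03 for Nes, an intermediate filament gene of neural progenitors, to 5.34 for Pax6. Their part in the difference of Eda2r was not tested.

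Tnfrsf19 (chr14:60963875-61046490, minus strand) was at 5.05 and 4.85 FPKM in the placodes and at 7.13 and 7.33 in the SMGs. The groups did not overlap, but the ratio of the group means was the smallest of the 6 genes. The means were 4.95 ± 0.139 and 7.23 ± 0.148 FPKM (SD, n = 2 each), and the log2FC was -0.47 (SE 0.08, limma adjusted p = 0.00238). Over all tested features the median size of the log2FC, regardless of sign, was 0.55, which is above the value for Tnfrsf19.

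The summed FPKM of the 3 receptors was 12.4 and 12.2 in the placodes and 10.4 and 11.3 in the SMGs, and its composition differed. In the placodes, Eda2r held 57.6% and 59.3% of this sum, Tnfrsf19 held 40.5% and 39.6%, and Edar held 1.85% and 1.05%. In the SMGs, Tnfrsf19 held 68.4% and 64.7%, Eda2r 17.2% and 22.1%, and Edar 14.5% and 13.2%. Eda2r exceeded Edar 31.1-fold and 56.7-fold in the placode samples but only 1.19-fold and 1.67-fold in the SMG samples. The ligand stood in another relation to its receptors too. The ratio of Eda to Eda2r was 0.163 and 0.209 in the placodes and 3.42 and 2.08 in the SMGs, whereas the ratio of Eda to Edar was 5.07 and 11.8 against 4.06 and 3.48. In the placodes, Edar stands for only about 13.6 and 7.73 estimated fragments, so its share and the ratios over it carry a large counting error there. These shares and ratios are a description and were not tested.

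**Figure D2:**
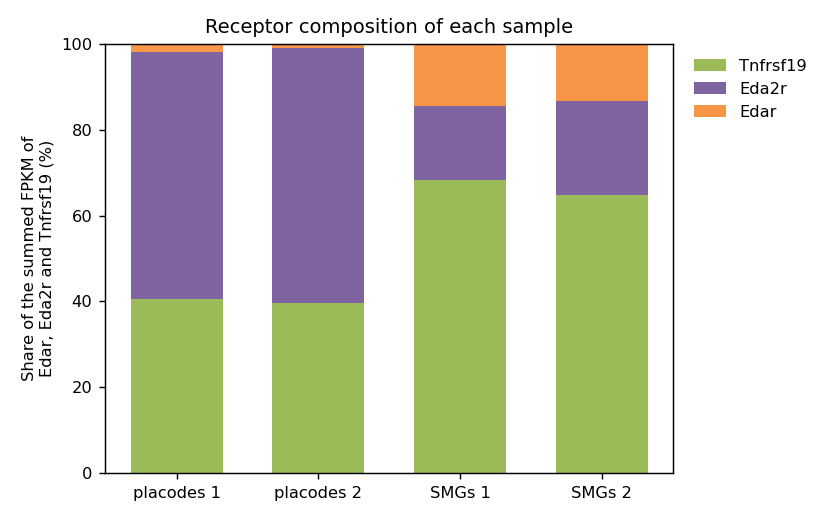
Share of the summed FPKM of Edar, Eda2r and Tnfrsf19 held by each receptor gene, as stacked bars for each of the 4 samples (y axis in percent, from 0 to 100). Eda2r makes up most of the bar in both placode samples and Tnfrsf19 in both SMG samples, and the Edar part shrinks from 14.5% and 13.2% in the SMGs to 1.85% and 1.05% in the placodes.

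The promoters of Edar and Eda2r are shown because these receptors of the A1 and A2 forms differed in opposite directions. Each is the 250 bases before the RefSeq start of the gene in GRCm38.p6, 5′ to 3′ on the strand of the gene, at chr10:58675697-58675946 and chrX:97377210-97377459. Capitals mark CTTTGAT, a core motif of the TCF/LEF factors of Wnt signaling.
Edar: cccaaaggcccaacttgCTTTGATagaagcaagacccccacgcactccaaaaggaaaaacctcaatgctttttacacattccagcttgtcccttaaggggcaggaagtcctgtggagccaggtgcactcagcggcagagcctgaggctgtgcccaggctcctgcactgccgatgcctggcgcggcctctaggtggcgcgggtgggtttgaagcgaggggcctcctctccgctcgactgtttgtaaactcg
Eda2r: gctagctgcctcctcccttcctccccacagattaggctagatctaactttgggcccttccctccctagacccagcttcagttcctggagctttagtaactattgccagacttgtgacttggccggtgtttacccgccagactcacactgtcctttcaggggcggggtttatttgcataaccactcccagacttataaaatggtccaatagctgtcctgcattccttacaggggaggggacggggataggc
CTTTGAT was searched for on both strands and lies at positions -233 to -227 relative to the start of Edar. It was also found in the promoter before 1 of the 2 starts of Tnfrsf19 and in no other of the 7 promoters of the 6 genes, and 3.21% of 32851 RefSeq promoters of this length hold it. The NF-κB consensus, searched for in the same way, was in none of the 7, and 3.90% of all promoters hold it. The Edar promoter has 11 CpG dinucleotides, that of Eda2r 4 and that of Eda 19, beside a median of 6 over all promoters. Such matches are a description of the sequence, and binding was not measured.

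Of the signal transducers next to the receptors, Edaradd was lower and Traf6 higher in the placodes. Edaradd (chr13:12472632-12520438, minus strand), the adaptor that binds Edar, was at 0.665 and 0.650 FPKM in the placodes and at 1.25 and 1.40 in the SMGs. The groups did not overlap, but in all 4 samples the gene was low. The means were 0.657 ± 0.0108 and 1.32 ± 0.108 FPKM (SD, n = 2 each), and the log2FC was -0.49. Its mean over all samples, 0.990 FPKM, fell just short of the minimum for testing. Without the minimum, its limma adjusted p was 0.0115 (SE 0.09), but this call was lost when placode sample 1 or 2 was left out (adjusted p = 0.0681 and 0.0704) and not when SMG sample 1 or 2 was left out (0.0264 and 0.0301). Edaradd exceeded Edar 2.88-fold and 5.07-fold in the placodes, with the large counting error of Edar there, while in the SMGs its level was 0.827 and 0.935 times that of Edar.

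Traf6 (chr2:101678429-101701669, plus strand), a ubiquitin ligase that also serves Toll-like and interleukin receptors, was at 10.7 FPKM in both placode samples and at 6.25 and 7.18 in the SMGs. It was the highest of the 6 genes in the placodes. The means were 10.7 ± 0.00574 and 6.71 ± 0.659 FPKM (SD, n = 2 each), and the log2FC was 0.61 (SE 0.09, limma adjusted p = 9.41e-04). Traf6 exceeded Edaradd 16.1-fold and 16.5-fold in the placodes, and 5.01-fold and 5.13-fold in the SMGs.

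By mean FPKM, the order in the placodes was Traf6, Eda2r, Tnfrsf19, Eda, Edaradd and Edar, and the samples of no neighbors in this order overlapped. In the SMGs the order was Tnfrsf19, Traf6, Eda, Eda2r, Edar and Edaradd. There the samples of Tnfrsf19 and Traf6 overlapped and those of the other neighbors did not. Edar was at or near the end of both orders. All 6 genes differed without overlap between the groups, as did 88.4% of the tested features, so the lack of overlap is not particular to them. Their summed FPKM was 25.0 and 25.1 in the placodes and 24.0 and 25.1 in the SMGs.

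Further down the pathway, the NF-κB subunit genes Rela, Nfkb1, Nfkb2 and Relb were lower in the placodes. The fifth subunit gene, Rel, was at 0.567 and 0.517 FPKM against 0.510 and 0.615, with overlapping groups, and was under the minimum for testing. Of the TAK1 complex, Tab2 was lower and Tab3 higher, while Map3k7 and Tab1 did not pass the test. Of 17 genes of the signal relay, 15 were tested, of which 4 rose and 9 fell, which is 86.7% beside 76.2% of all tested features, and the median log2FC was -0.43 beside -0.05. Without placode sample 1 or 2 the number that rose was 3 or 2, and 8 or 9 fell. Rela, the main activating subunit, was at 8.22 and 9.30 FPKM against 19.8 and 18.6 (log2FC -1.05). The limma adjusted p of the fall was 1.31e-04 for Nfkb2 (log2FC -1.05) and 6.03e-04 for Relb (log2FC -0.96). Nfkb1 was at 5.97 and 6.05 against 15.1 and 14.2 (log2FC -1.16), and Traf5, another adaptor of the TNF receptors, at 0.647 and 0.807 against 9.16 and 8.68 (log2FC -2.52). Traf5 had the lowest log2FC of the relay genes. The genes that rose most were Traf3 (18.3 and 18.1 against 9.55 and 9.68 FPKM, log2FC 0.85), which restrains the alternative NF-κB route, Tab3 (7.27 and 7.24 against 4.09 and 4.31, log2FC 0.67), a partner of TAK1, and Ikbkg (11.1 and 10.9 against 8.44 and 6.79, log2FC 0.48), the regulatory subunit of the IκB kinase. The highest limma adjusted p among these named genes was 0.00643, that of Ikbkg, whose call was lost without placode sample 1 or 2 (0.0850 and 0.0778). Map3k7, which encodes TAK1 itself, was at 26.9 and 28.1 FPKM against 26.7 and 28.4, and its partner Tab1 was at 16.9 and 19.9 against 17.2 and 17.7. Their adjusted p-values were 0.979 and 0.512. Tab2 was at 37.2 and 36.5 FPKM in the placodes against 50.7 and 49.2 in the SMGs (log2FC -0.43). Of the other IκB kinase genes, Ikbkb rose (log2FC 0.31, and 0.25 without placode sample 2). Chuk fell (log2FC -0.22, limma adjusted p = 0.0304, and log2FC -0.16 without placode sample 1). Neither the call of Ikbkb nor that of Chuk held with each sample left out in turn, so both are weak.

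Of 6 inhibitors of NF-κB, some of which are themselves induced by it in many cells, 1 rose, 2 fell and 3 did not pass the test, so that 50% differed beside 76.2% of all tested features. The median log2FC was 0.06. Nfkbia, which encodes IκBα, was at 9.64 and 10.7 FPKM against 19.4 and 21.7 (log2FC -0.95), and Tnip1 was at 8.97 and 9.76 against 14.6 and 15.4 (log2FC -0.63). Tnfaip3, which encodes the ubiquitin-editing enzyme A20, was higher, at 3.50 and 3.73 FPKM against 1.89 and 1.92 (log2FC 0.67, adjusted p = 0.00111). The genes that did not pass were Nfkbib (12.3 and 11.3 FPKM against 10.6 and 12.1), Nfkbie (2.80 and 2.38 against 2.75 and 2.16) and Cyld (5.66 and 6.68 against 5.24 and 5.59).

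Most genes known as targets of ectodysplasin in hair, tooth and gland placodes had a mean below 1 FPKM over all samples. Of 15 such genes, 5 reached the minimum for testing, of which 1 rose and 3 fell in the placodes, or 80.0% beside 76.2% of all tested features. Shh, a ligand that marks epithelial placodes and also the floor plate of the neural tube, was at 2.59 and 2.92 FPKM in the placodes and at 0 and 0.0735 in the SMGs (log2FC 1.86). Pthlh, a signal from epithelium to mesenchyme, was at 0.145 and 0.170 FPKM against 8.66 and 9.50 (log2FC -3.12). Smaller differences were found for Fst (2.00 in both placode samples against 4.53 and 3.71, log2FC -0.77) and the cyclin gene Ccnd1 (34.3 and 36.1 against 50.8 and 47.5, log2FC -0.47). The highest limma adjusted p of these 4 genes was 0.00119. Ccn2 was at 3.15 and 2.26 FPKM against 2.46 and 2.37 and did not pass the test (adjusted p = 0.513). Wnt10a, at 0.0994 and 0.0721 FPKM against 2.04 and 1.23, and Ltb, at 0 in the placodes and at 1.43 and 1.14 in the SMGs, were under the minimum. Without the minimum, 8 of the 15 genes differed, 1 being higher and 7 lower in the placodes. In that fit 58.1% of all features differed, 5536 being higher and 6358 lower. The 8 included Wnt10b, at 0 in the placodes and at 0.598 and 0.843 FPKM in the SMGs. They also included Cxcl10, at 0.395 and 0.378 FPKM against 1.90 and 0.906. Dkk4 was listed at 0 in all samples but SMG sample 2, where it was at 0.0398 FPKM.

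**Figure D3:**
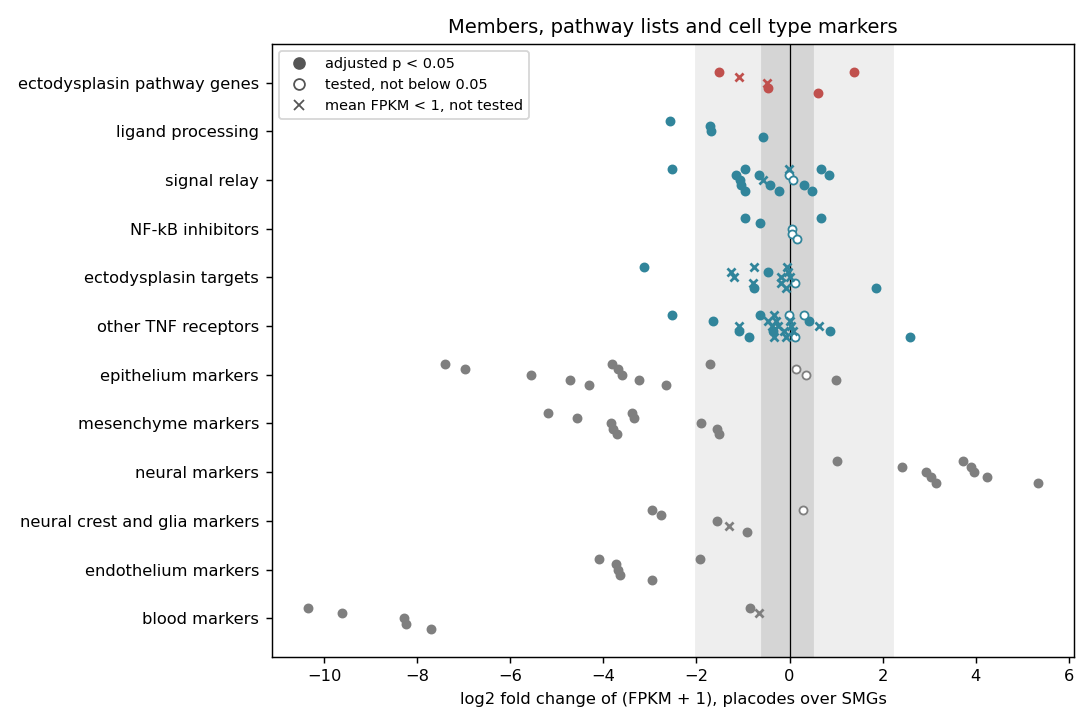
log2 fold change of (FPKM + 1), placodes over SMGs, of the 6 ectodysplasin pathway genes (red), of 5 lists of related genes (blue) and of 6 lists of cell type markers (gray). Filled points passed the limma test, open points did not, and crosses were under a mean of 1 FPKM and not tested. Dark shading spans the 25th to 75th percentile and light shading the 5th to 95th percentile of all tested features. Epithelial, mesenchymal, endothelial and blood markers lie mostly further left, and neural markers except Nes further right, than any of the 6 genes.

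Among the 28 receptors of the TNF family in the table, Eda2r ranked at position 4 by mean FPKM in the placodes and 8 in the SMGs, Tnfrsf19 at 6 and 5, and Edar at 20 and 13. Of the other 25 receptors, 12 were tested, of which 3 rose and 6 fell, with a median log2FC of -0.18. These 9 of 12 were 75%, close to the 76.2% of all tested features, so the count is no result about these receptors. Without placode sample 1 the counts were 4 and 4, and without placode sample 2 they were 2 and 6. Ltbr, the lymphotoxin receptor, was at 4.75 and 3.06 FPKM against 26.5 and 26.9 (log2FC -2.52), Tnfrsf1a, a receptor of TNF itself, at 10.5 and 8.67 against 32.5 and 31.2 (log2FC -1.64), and the death receptor Fas at 0.395 and 0.205 against 1.92 and 1.59 (log2FC -1.08). Those that rose beside Eda2r were Tnfrsf9 (5.65 and 4.54 FPKM against 0 and 0.0247, log2FC 2.58), Relt (4.33 and 4.81 against 1.65 and 2.50, log2FC 0.87) and Tnfrsf21 (18.5 and 17.3 against 12.9 and 13.3, log2FC 0.42), which is also known as the death receptor DR6 of neurons. The highest limma adjusted p of these 6 receptors was 0.00238, that of Relt, whose call was lost without placode sample 2 (0.0540). Tnfrsf12a, Tnfrsf10b and Tnfrsf14 did not pass the test (adjusted p = 0.541, 0.882 and 0.177), and their groups overlapped.

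**Figure D4:**
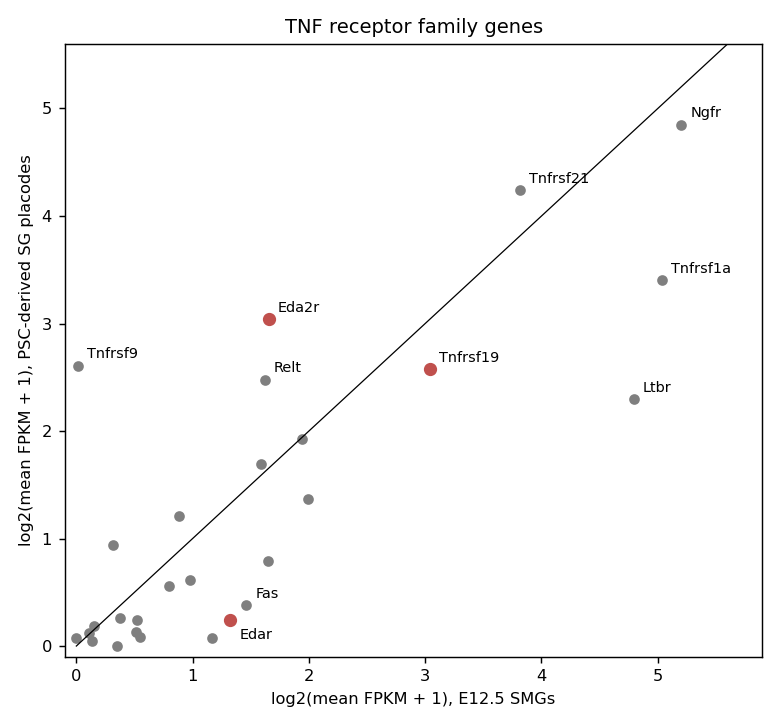
Mean FPKM of the 28 TNF receptor family genes as log2(mean FPKM + 1) in E12.5 SMGs (x axis) and in PSC-derived SG placodes (y axis), with Edar, Eda2r and Tnfrsf19 in red and the line of equal levels. Eda2r lies above the line, Tnfrsf19 a little below it, and Edar near the x axis, at means of 0.179 FPKM in the placodes and 1.50 FPKM in the SMGs.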

How the data were processed

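Total RNA of 2 samples of PSC-derived SG placodes and 2 samples of E12.5 SMGs was sequenced as paired-end reads. The authors mapped the reads with HISAT2 and deposited FPKM values per gene. The submitters' processing notes list GRCm38 and GRCh38. The annotation, strandedness and FPKM program are not given in the sources used here. By gene identifier, 22022 of the 22036 Ensembl genes matched GENCODE M21 (GRCm38), which gave coordinates and the exons of Eda. Promoters are from RefSeq (GRCm38.p6).

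log2(FPKM + 1) was compared with limma 3.58.1 in R 4.3.3 (eBayes with trend, two-sided, group as the only term) over features with a mean of at least 1 FPKM. On simulated data for this comparison, with 13193 features, 198 of 200 features changed by 1 on the log2 scale were recovered and 12 of 12993 unchanged features were called. Few features were changed there and low ones were not, whereas 76.2% of the tested features differed in the data. Noise was drawn independently for each sample, with a spread shared by features of similar level. The simulation therefore does not cover levels like those of Edar and Edaradd, or samples that are not independent. Nor does it cover features with a spread of their own. Tables and figures were made with Python 3.11.15. Intervals of counting error are not given, because fragments were only estimated.

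The members and gene lists were chosen with earlier results of these data known. Of 126 list genes, all were found, 1 by an older symbol (Ccn2 as Ctgf). All 6 members were named, with the 2 tested genes nearest to each tested member. Of each pathway list the 3 called genes at either end of the log2FC were named, with the genes not called, and, for targets and convertases, genes at 1 FPKM or more in both samples of a group. Nfkb2, Relb, Rel, Tab2, Ikbkb, Chuk, Wnt10b, Cxcl10, Dkk4 and the cell type markers were named outside this rule, after their values were seen. The alternatives tried were a pseudocount of 0.1, TPM, median-ratio and quantile scaling, other minimums, no assembled loci, a replicate block, other eBayes priors and each sample left out.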

Additional observations from a re-analysis of the deposited data

How the results depend on the processing

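Eda, Eda2r, Tnfrsf19 and Traf6 kept their direction and an adjusted p below 0.05 under every change of 1 setting that gave them a value, with highest adjusted p-values of 0.00653, 0.0124, 0.0291 and 0.0274. With each sample left out in turn, log2FC ranged from -1.62 to -1.40 for Eda, from 1.23 to 1.56 for Eda2r, from -0.49 to -0.44 for Tnfrsf19, from 0.52 to 0.69 for Traf6, from -1.15 to -1.02 for Edar and from -0.53 to -0.44 for Edaradd. A lone sample was then assumed to vary like the other group. With a pseudocount of 0.1, log2FC was -2.54 for Edar and -0.91 for Edaradd. At a minimum of 5 FPKM, only 2 of the 6 genes, 1 target gene and 4 other TNF receptors were tested. All of these were called, beside 7460 of 9679 features. That minimum gave no value for Eda, Edar, Edaradd and Eda2r. With no minimum, 6 of 6, 8 of 15 and 15 of 25 were called, beside 58.1% of all features. Without the minimum and with each sample left out, a setting added after seeing the data, Eda (0.0383 to 0.0449) and Edar (0.0203 to 0.0319) stayed called at these adjusted p-values. Calls were lost without placode sample 1 or 2 for Edaradd (0.0681 and 0.0704), Eda2r (0.0702 and 0.0709, log2FC 1.40 and 1.39) and Traf6 (0.0906 and 0.0898, log2FC 0.61 in both). For Tnfrsf19 the call was lost without SMG sample 2 (0.0540, log2FC -0.45). Without Eda2r in the sum, Tnfrsf19 held 96.5% of receptor FPKM in the placodes and 82.8% in the SMGs, against 40.1% and 66.5%. The order of levels was the same with geometric means. With a replicate block, 10043 features and 4 of the 6 genes were called, against 10049 and 4. Differences between the replicates of the 2 groups were not correlated over features (r = -0.0348). This cannot settle whether the samples were paired, because each group gave a single difference per feature. Low levels limit Edar and Edaradd most.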

Other observations

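The tested genes whose FPKM was nearest to each pathway gene over the 4 samples were found by Euclidean distance in log2(FPKM + 1). For Eda they were Dysf, a membrane repair gene, at a distance of 0.196, and Tpcn2, an endolysosomal ion channel gene, at 0.207, beside a median of 3.88 over tested Ensembl genes. Dysf was at 1.26 and 1.40 FPKM in the placodes and at 6.66 and 5.84 in the SMGs. For Eda2r they were Dnajc6, which encodes the neuronal clathrin-uncoating factor auxilin, at 0.0760, and the kinase gene Mapk4 at 0.234 (median 3.41). Dnajc6 was at 7.15 and 7.28 FPKM against 1.86 and 2.35. For Tnfrsf19 they were Fbxl4 (0.0573) and 2310061I04Rik (0.0790, median 2.82), and for Traf6 they were Armt1 (0.0373) and Klf11 (0.124, median 2.69). With 4 samples in 2 groups, many genes share such a pattern, and these distances are a description.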
